A study of Mus musculus with 2 samples.

Results

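The Toll-like receptor genes of the mouse were read on 2 one-colour microarrays of cultured macrophages, 1 from cells given PBS and 1 from cells given synthetic miR-122. The members were fixed by name: Tlr1, Tlr2, Tlr3, Tlr4, Tlr5, Tlr6, Tlr7, Tlr8, Tlr9 and Tlr13, 10 genes among 20659 genes named on the array. A probe was assigned to a receptor when its transcript accession resolved to that symbol, which gave 11 probes and at least 1 for every member. Of the 10 members, 8 were well above background on both arrays by the flag of the scanner software. Tlr5 and Tlr8 were well above background on neither.

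Toll-like receptors are membrane proteins whose leucine-rich outer part binds microbial molecules and whose inner TIR domain recruits adaptor proteins. Tlr1, Tlr2, Tlr4, Tlr5 and Tlr6 sit mainly on the cell surface and recognise lipids and proteins of microbes, whereas Tlr3, Tlr7, Tlr8, Tlr9 and Tlr13 reside in endosomes and recognise nucleic acids. Most of them signal through MyD88 to NF-kB and interferon regulatory factors, Tlr3 signals through TRIF (Ticam1), and Tlr4 uses both adaptors. In macrophages this family starts the inflammatory and interferon response to infection.

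The cells were RAW246.1 cells, spelled as in the labels, a mouse macrophage culture grown in DMEM; the same treatment text, naming 5 μg/mL synthetic miR-122, stands with both samples. The PBS array is the one whose source name gives PBS and the miR-122 array the one whose source name gives miR-122, although the title of the latter reads as cells without miR-122. Each group held 1 array, so no difference below has a replicate check or a p-value, and array position on the slide and treatment cannot be told apart. Errors marked ± are the scanner software's own error estimates for a spot, carried through to the difference, and cover technical error only.

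Each array had 39429 non-control probes, of which 28302 with PBS and 27571 with miR-122 were well above background, and no spot was saturated. The signal is the background-subtracted Cy3 intensity of a spot, and a level is its log2 value minus the log2 of the 75th percentile of all non-control probes on that array. That percentile was lower by 0.28 on the log2 scale on the miR-122 array, a shift larger than several of the receptor differences below, so unscaled signals are given first. Differences are miR-122 minus PBS. Among 277 probes printed 10 times, log2 signals varied over the spots of a probe by a median standard deviation of 0.05 with PBS and 0.06 with miR-122, and probes of the same gene differed among themselves with a pooled standard deviation of 0.30. Of the 8 macrophage markers fixed, 6 were measured on both arrays, Cd68 had no probe matched by accession and Mertk was not well above background. The summed signal of these 6 was 55300 with PBS and 27200 with miR-122, of which the brightest Csf1r probe gave 46200 and 22200. Csf1r, Itgam, Lyz2 and Adgre1 had negative differences at their brightest probe, -0.78, -0.85, -0.71 and -0.58, and Fcgr1 and Spi1 positive ones. Fcgr1 had the largest difference of the 6 and was the only one past 2-fold under the scaling used. Its signals were 61.0 with PBS and 511 with miR-122, 10.1-fold higher, or 5.25-fold with normexp. Spi1 differed by 0.58. The 3 Csf1r probes ran from -0.78 to -0.06 and the 3 Itgam probes from -0.85 to 0.36, and their means over probes were -0.48 and -0.20. Of 34 markers of 7 other cell types, 19 were measured on both arrays. Their summed signals with PBS and with miR-122 were 38700 and 43000 for plasmacytoid dendritic cells, which held Siglech at 31000 and 26400. Bst2 gave 4330 and 10900 and Tcf4 3080 and 5350, both past 2-fold under the scaling used. With median scaling Tcf4 stood at 1.87-fold. The sums were 2160 and 2000 for neutrophils, 230 and 146 for T cells, 83.2 and 239 for conventional dendritic cells, 79.0 and 88.5 for fibroblasts, 74.4 and 81.9 for B cells and 43.4 and 65.9 for hepatocytes. Of the conventional dendritic cell markers, Zbtb46 had signals of 26.1 and 184, a difference of 3.09, or 1.77 with normexp. Flt3 had 57.1 and 54.9, and Xcr1 and Clec9a were well above background on neither array. Of the hepatocyte markers, Serpina1a had 30.4 and 50.2 and Fgb 12.9 and 15.7, and Alb and Apoa1 were well above background on neither array. The part of any of these markers in the receptor differences was not tested.

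Tlr3, the receptor for double-stranded RNA, was the receptor that differed most between the arrays. Its probe gave a signal of 49.3 ± 5.4 with PBS and 487 ± 48.8 with miR-122. The PBS signal was dim, 4.57 times the lowest probe signal well above background there, and the miR-122 signal was 40.5 times that array's lowest. The level went from -3.10 to 0.49, a difference of 3.58 ± 0.21, or 12.0-fold higher. Of 15018 genes well above background on both arrays, 27 had a larger difference. When the genes were cut into 10 equal bins by mean level, 4 of the 1502 genes in its bin did. The size depended on the background correction, at 2.50 or 5.64-fold with normexp, and was 3.31 with no scaling between the arrays. The gene rests on 1 probe printed once. In RNA of a whole culture, more RNA per cell and more cells holding that RNA cannot be told apart.

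The bases around the start of Tlr3 are shown because this is the receptor with the large difference. Those of Tlr6 and Tlr2 stand beside them, which differed by -0.08 and 0.20 after scaling and by -0.36 and -0.08 unscaled. Both hold matches to several of the motifs below. Tlr9 and Tlr13, at 0.24 and -0.03 after scaling, are not shown, so the windows shown give no comparison of motifs with differences. They are RefSeq promoters of build GRCm38.p6, each 250 bases before and 50 after a transcript start, 5′ to 3′ on the gene's minus strand, with capitals marking matches on either strand to the motifs named after them.
Tlr3, chr8:45410331-45410630: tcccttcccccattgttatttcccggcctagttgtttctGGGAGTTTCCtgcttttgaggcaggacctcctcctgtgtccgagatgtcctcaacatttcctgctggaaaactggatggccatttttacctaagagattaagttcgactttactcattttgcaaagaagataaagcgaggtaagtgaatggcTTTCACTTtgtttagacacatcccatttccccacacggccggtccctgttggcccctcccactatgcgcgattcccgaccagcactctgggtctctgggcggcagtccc
Tlr6, chr5:64959117-64959416: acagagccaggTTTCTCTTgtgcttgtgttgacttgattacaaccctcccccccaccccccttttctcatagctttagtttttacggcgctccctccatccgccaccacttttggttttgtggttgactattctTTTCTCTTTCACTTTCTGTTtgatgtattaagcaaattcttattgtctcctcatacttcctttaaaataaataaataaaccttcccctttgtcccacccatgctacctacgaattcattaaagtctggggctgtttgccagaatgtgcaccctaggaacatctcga
Tlr2, chr3:83841559-83841858: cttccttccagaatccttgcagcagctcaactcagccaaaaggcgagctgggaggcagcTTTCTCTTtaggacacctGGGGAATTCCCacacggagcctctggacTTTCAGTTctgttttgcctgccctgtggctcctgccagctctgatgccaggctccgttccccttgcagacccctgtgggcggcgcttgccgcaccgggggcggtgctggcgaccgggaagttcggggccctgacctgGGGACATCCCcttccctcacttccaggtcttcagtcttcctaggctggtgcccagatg
The motifs were the interferon-stimulated response element (ISRE), in which GAAANN precedes GAAA, the gamma-activated site TTCNNNGAA, the PU-box GAGGAA bound by the macrophage factor PU.1, an NF-kB site, and the shorter IRF core AANNGAAA, which was added after the promoters were seen and is contained in the first. Tlr3 held 1 NF-kB match, GGGAGTTTCC, and 1 IRF core, TTTCACTT on the strand shown. The longer response element was not matched in the window of Tlr3. The Tlr6 window shown held that element at TTTCTCTTTC and, overlapping it, at TTTCACTTTC. The other promoter of Tlr6, which is not shown, held gamma-activated sites but neither the response element nor the IRF core. Tlr2 held the overlapping NF-kB matches GGGGAATTCC and GGGAATTCCC and a further one, GGGACATCCC. Of 32851 promoters of this length in the table, 3.44% held the response element, 8.46% the NF-kB site and 23.9% the IRF core.

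The 8 receptors with a RefSeq promoter entry had 10 promoters among them. The response element was found in 1 of these, a promoter of Tlr6, and the NF-kB site in those of Tlr2 and Tlr3. The IRF core occurred in Tlr1, Tlr2, Tlr3 and Tlr6. PU-boxes occurred in 4 of the 10 promoters, of Tlr1, Tlr8, Tlr9 and Tlr13, against 28.3% of all promoters. Gamma-activated sites occurred in 3 of the 10, of Tlr1, Tlr6 and Tlr8, against 8.30%. Tlr4 and Tlr7 had no entry. A match describes the letters of the window and was not tested as a binding site.

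Tlr7, which senses single-stranded RNA in endosomes, was read by 2 different probes that agreed closely. The first gave signals of 2162 ± 216 with PBS and 3063 ± 306 with miR-122, and the second 1305 ± 130 and 1884 ± 188. The unscaled log2 differences were 0.50 and 0.53, and after scaling 0.78 ± 0.20 and 0.81 ± 0.20. Both probes were higher on the miR-122 array by 1.72-fold and 1.75-fold, and the gap between them was smaller than the spread of 0.30 between probes of a gene. Tlr7 stayed under 2-fold, and 1086 of the 15018 genes had a larger difference. It passed 1.5-fold, as did 12.1% of all measured genes in the higher direction, but not with no scaling, at 1.42-fold, and with median scaling it stood at 1.52-fold. Its sign was positive under all 11 processing settings, between 0.50 and 0.79.

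Tlr9, the receptor for unmethylated CpG DNA, had nearly the same signal on both arrays, 674 ± 67.5 and 657 ± 65.8 on the PBS and miR-122 array. Its difference was -0.04 unscaled and 0.24 ± 0.20 after scaling, so its direction depended on whether the arrays were scaled. Among the 11 settings it was negative under no scaling alone, and with median scaling it was 0.06. Tlr13, which recognises bacterial ribosomal RNA, had signals of 6711 ± 671 and 5437 ± 544. It differed by -0.30 unscaled and by -0.03 ± 0.20 after scaling, with 0.01 under normexp. Tlr8, a close relative of Tlr7, gave 2.21 ± 2.20 with PBS and 2.51 ± 2.50 with miR-122. These errors are as large as the signals, so no fold is given for Tlr8.

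**Figure D1:**
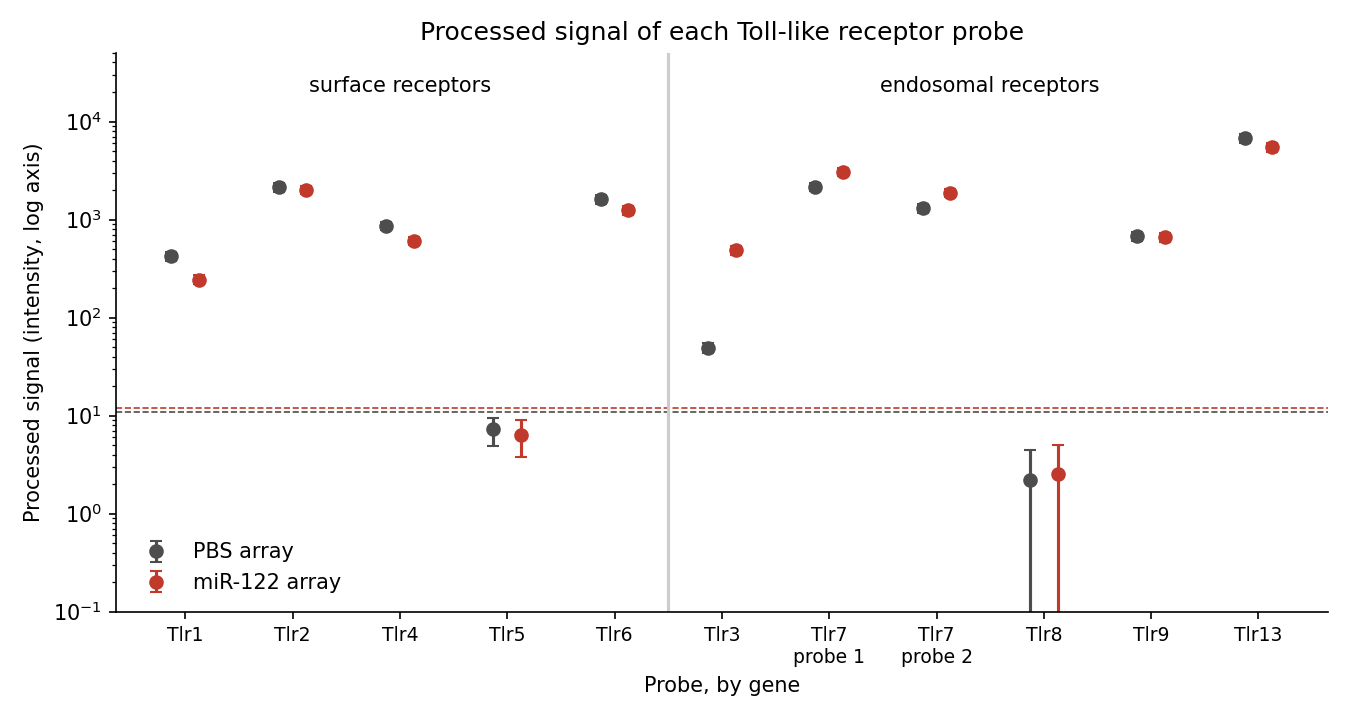
Processed signal (log axis) of each of the 11 receptor probes with PBS (grey) and with miR-122 (red); points are the mean over the spots used, bars the scanner's error estimate per spot (those of Tlr8 run off the axis), and dashed lines the lowest probe signal well above background, 10.8 and 12.0. The Tlr3 points, 49.3 and 487, lie far apart, the Tlr5 and Tlr8 points lie below the lines, and the other pairs lie close together.

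Of the surface receptors, Tlr2, which pairs with Tlr1 or Tlr6 to bind bacterial lipopeptides, was the only receptor whose probe was printed 10 times, so its spread over spots can be given. After 1 outlier spot was left out on each array, 9 spots gave 2127 ± 44.2 (SD over spots) on the PBS array, between 2068 and 2198. On the miR-122 array they gave 2018 ± 75.6 (SD over spots), between 1884 and 2112. The ranges of these unscaled spot signals overlapped. Taken relative to the 75th percentile of each array, 421.17 with PBS and 347.72 with miR-122, they did not. The difference was -0.08 unscaled and 0.20 ± 0.20 after scaling, and it was negative under no scaling alone among the 11 settings.

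Tlr1, the partner of Tlr2 for triacylated lipopeptides, was the receptor with the largest negative difference. Its signals were 424 ± 42.5 with PBS and 244 ± 24.5 with miR-122. The difference was -0.80 unscaled and -0.52 ± 0.20 after scaling, 1.44-fold lower. Of the 15018 genes, 1099 had a lower value. Tlr4, the lipopolysaccharide receptor, had signals of 861 ± 86.2 and 606 ± 60.6 and a difference of -0.23 ± 0.20, 1.17-fold lower. Tlr6, the partner of Tlr2 for diacylated lipopeptides, had signals of 1602 ± 160 and 1250 ± 125 and differed by -0.08 ± 0.20. The differences of Tlr1, Tlr4 and Tlr6 were negative under all 11 settings, reaching -0.51 for Tlr4 and -0.36 for Tlr6 with no scaling, and none passed 2-fold. Tlr5, the flagellin receptor, gave 7.22 ± 2.31 and 6.38 ± 2.58, below the lowest signals well above background of 10.8 and 12.0, so no fold is given. Tlr1 and Tlr6 are close relatives in sequence, and whether their probes share transcripts was not tested.

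Counted together, 1 of the 8 measured receptors, Tlr3, passed 2-fold in the higher direction, as did 4.57% of the 15018 genes. In the lower direction 0 of the 8 passed 2-fold, against 1.78% of all genes. The directions among all genes depended on the scaling: 71.9% of the genes past 2-fold were higher, against 50.8% with median scaling, 59.9% with quantile normalization and 40.5% with no scaling. Median scaling moved the median of all genes by -0.18 and quantile normalization by -0.12. The median difference of the 8 receptors was 0.09, the same as the 0.09 over all genes, and the receptors other than Tlr3 lay between -0.52 and 0.78. These other 7 receptors each differed by under 2-fold between the arrays.

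**Figure D2:**
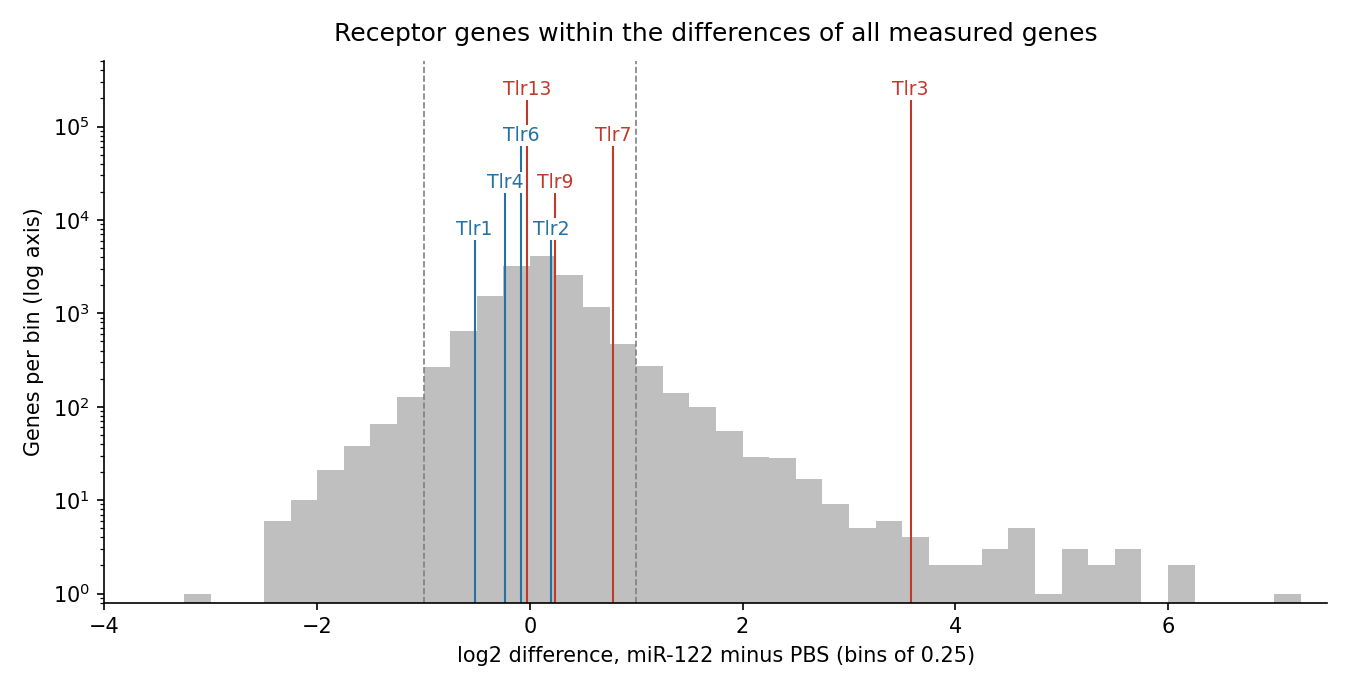
Number of genes per 0.25-wide bin of log2 difference, miR-122 minus PBS, for the 15018 genes measured on both arrays (grey bars, log axis), with the 8 measured receptors as vertical lines, endosomal in red and surface in blue, and dashed lines at 2-fold. Tlr3 lies at 3.58 in the right tail, and the other 7 receptors lie between the dashed lines.

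By location, 4 of 5 endosomal and 4 of 5 surface receptors were measured on both arrays. The endosomal differences were 3.58 for Tlr3, 0.78 for Tlr7, 0.24 for Tlr9 and -0.03 for Tlr13, with a median of 0.51. The surface differences were 0.20 for Tlr2, -0.08 for Tlr6, -0.23 for Tlr4 and -0.52 for Tlr1, with a median of -0.16. The ranges of the groups overlapped, and the difference between endosomal and surface receptors was not tested. On the PBS array the levels of the endosomal receptors ran from -3.10 to 3.99 and those of the surface receptors from 0.01 to 2.34, side by side. Probes differ in how strongly they bind and label, so these levels give no order of transcript abundance between genes. The remaining mouse receptors, Tlr11 and Tlr12, were near the detection limit. Tlr11 had signals of 12.4 ± 2.5 and 17.3 ± 3.0, just above it on both arrays, and Tlr12 was well above background on neither.

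**Figure D3:**
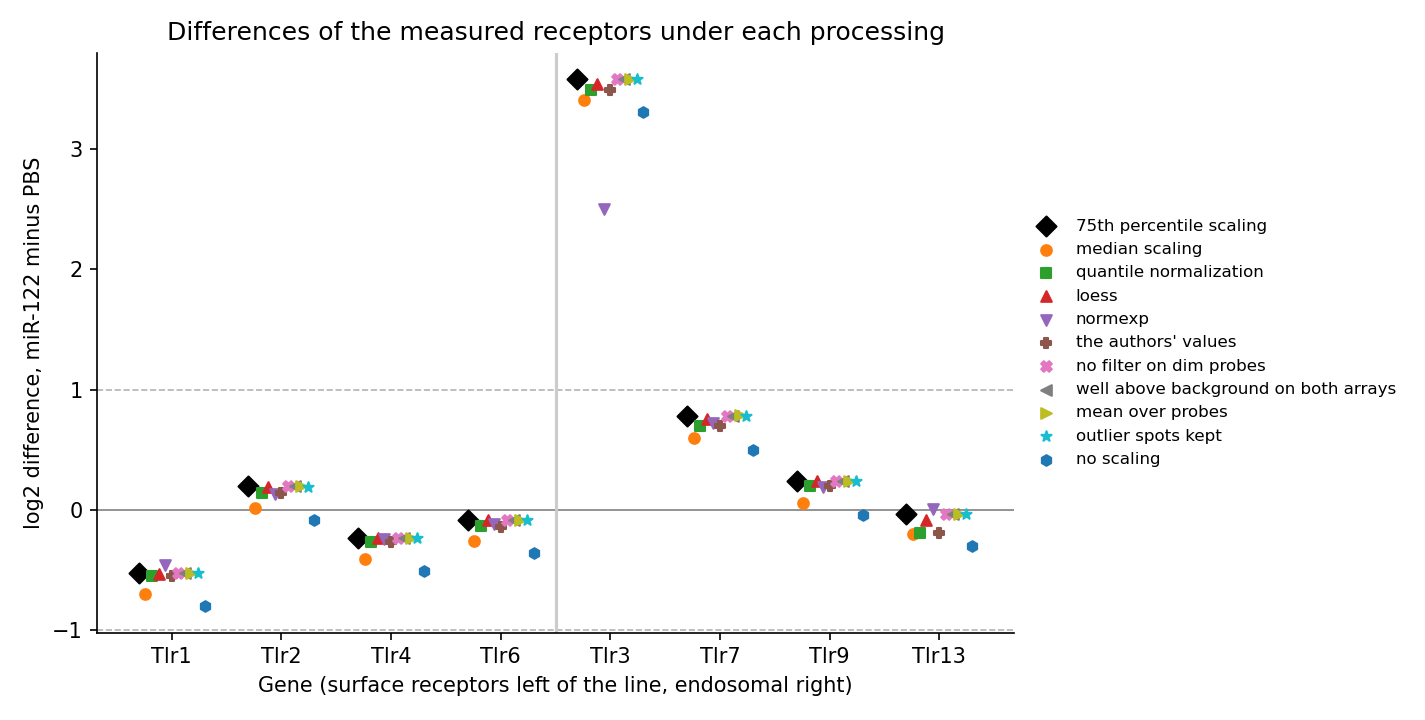
Log2 difference, miR-122 minus PBS, of the 8 receptors well above background on both arrays under 11 processing settings (1 marker each, black diamonds for the scaling used in the text), with dashed lines at 2-fold. Tlr3 lies between 2.50 and 3.58 and Tlr7 between 0.50 and 0.79, while Tlr2, Tlr9 and Tlr13 lie on either side of 0.

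The genes that serve these receptors were described in 7 lists by role, of which 64 of 67 genes were measured on both arrays. Among the 64, 8 passed 2-fold upward (12.5%, against 4.57% of all genes) and 1 downward (1.56%, against 1.78%), and their median was 0.27. The lists were chosen with earlier results of these data known, so these shares do not test whether the pathway differs from other genes. With median scaling or no scaling, 4 passed upward (6.25%), which were Irf1, Irf7, Slc15a3 and Usp18. In the adaptor list, the median was 0.66 and 1 of 5 measured genes passed 2-fold. Myd88 differed by 1.09 ± 0.20, or 1.89-fold with median scaling. Pik3ap1, which links the receptors to phosphoinositide kinase, differed by 0.80, Tirap by 0.66, and Ticam1, the adaptor of Tlr3, by 0.57 ± 0.21. The adaptor of Tlr3 was thus under 2-fold where its receptor was 12.0-fold higher. The median of the 16 kinases and ubiquitin ligases was 0.16 with none past 2-fold, and Tbk1 and Ikbke, the kinases that activate interferon regulatory factors, differed by 0.64 and 0.58. All 8 transcription factors had positive differences under the scaling used, but Irf3 turned negative with median scaling and no scaling, and Rela with no scaling. Irf7, which carries signals of Tlr7 and Tlr9, was 4.93-fold higher and Irf1 4.43-fold higher, against 1.91-fold for Irf5, 1.63-fold for Rel and 0.08 for Irf3.

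Among the surface co-receptors, 0 of 5 passed 2-fold, with a median of 0.55. Ly86 and Cd180, which form a complex related to Tlr4 and its partner, differed by 0.78 and 0.75, and Ly96, the lipopolysaccharide-binding partner of Tlr4, by 0.55, while Tlr4 itself differed by -0.23. Cd14, which passes lipopolysaccharide to that complex, differed by 0.25. Of 10 genes for trafficking and folding, Slc15a3, a transporter of the endolysosome, was 2.43-fold higher and the kinase gene Lyn 2.07-fold, or 1.83-fold with median scaling. The median was 0.09. Unc93b1, which carries the nucleic acid receptors to endosomes, differed by 0.42, and Cnpy3, a chaperone for receptor folding, by -0.31. The 9 endosomal proteases and nucleases had a median of 0.04 with none past 2-fold, from -0.46 for Lgmn to 0.59 for Ctss, both proteases that can cleave these receptors, with Rnaset2a at 0.47 and Ctsl at 0.16.

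Negative regulators had a median of 0.36 over 11 genes, of which 3 passed 2-fold upward and 1 downward. Usp18, which restrains interferon receptor signalling, was 4.64-fold higher. Socs1 and Tnfaip3, feedback inhibitors, were 2.09-fold and 2.08-fold higher, and both were under 2-fold with median scaling, at 1.85-fold and 1.84-fold. Il1rl1, the receptor for interleukin 33, was 2.23-fold lower. Among genes that the receptors can induce, all 12 measured had positive differences under the scaling used, with Nfkbia turning negative with no scaling, and 10 passed 2-fold, against 4.57% of all genes. Cxcl2, a neutrophil-attracting chemokine, was among the 10 at 2.05-fold but stood at 1.82-fold with median scaling and 1.98-fold with normexp, and was also under 2-fold with quantile normalization, loess, the authors' values and no scaling. With no scaling Ptgs2 was under 2-fold too, which left 8. These 12 were chosen as known outputs with earlier results of these arrays in view. Tlr3 itself is inducible by interferon, and a part of interferon in its difference was not tested. The 5 outputs of interferon regulatory factors, Ifnb1, Cxcl10, Ccl5, Ifit1 and Isg15, had a median of 5.51. The 7 outputs through NF-kB had a median of 1.20, with Il6 at 6.10, or 4.55 with normexp, Nos2 at 1.81, Tnf at 1.49 and Ptgs2 at 1.20. Actb, Gapdh and Hprt, genes used as references, differed by 0.21, 0.18 and -0.25.

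**Figure D4:**
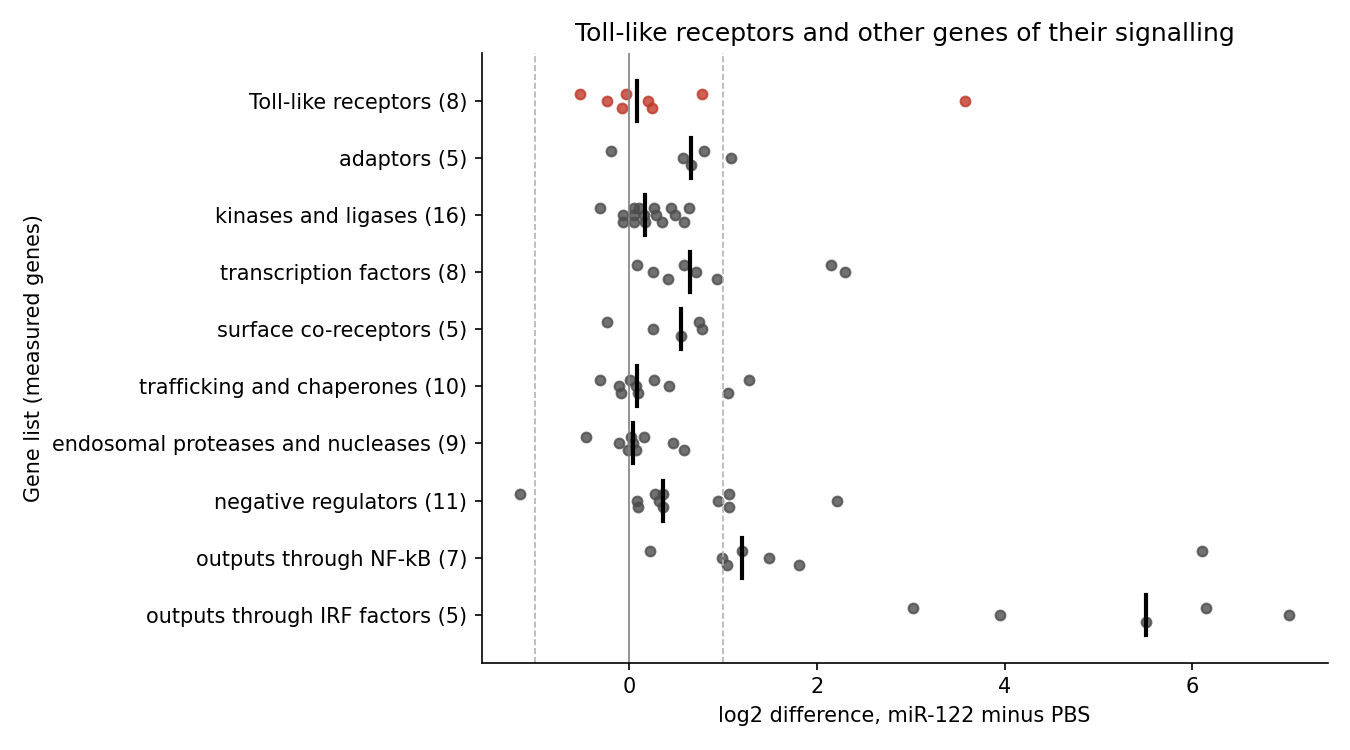
Log2 difference, miR-122 minus PBS, of each measured gene (points) in the receptor family (red) and in 9 lists of other genes of the pathway (grey), with the median of each list as a black bar, dashed lines at 2-fold and the number of genes in brackets. The bar of the receptors lies at 0.09 and that of the outputs of interferon regulatory factors at 5.51.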

How the data were processed

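Cy3-labelled RNA of 2 cultures, 1 given PBS and 1 given miR-122, was read on Agilent mouse arrays, per the labels. Per the file headers, the deposited intensity values were made with Agilent Feature Extraction 11.0.1.1, background-subtracted and detrended but not normalized between arrays. The deposited log2 values of the series matrix were processed by the authors by steps not given in the sources used here; each column correlated at 0.997 across probes with the log2 intensity of its own array and at 0.985 with the other, and has a median of 5.17 over non-control probes. Their differences lay within 0.01 of those after quantile normalization for 99.9% of 15017 genes, so they carry little information beyond that alternative.

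Spots flagged as outliers were left out (145 and 196 non-control spots), log2 signals of a probe's spots were averaged, and each array was scaled by subtracting its own 75th percentile of non-control probes. A probe counted as well above background when over 50% of its spots were. Accessions were matched without versions to RefSeq genes of assembly GRCm38.p6, used for names, and 27234 of 39429 probes matched. Each gene was represented by the brightest of its probes that cleared background on either array. No test was possible with 1 array in each group, so genes were counted at 2-fold. Alternatives were other scalings (median, quantile, loess with a span of 0.3, none), normexp with an offset of 50 on median spot signals, the authors' values, other filters, the mean over probes, and 1.5-fold and 4-fold thresholds. Protein sequences were not analysed here. The receptors, gene lists and motifs were chosen with earlier results of these data known. Named are all receptors and, of each list, up to 4 genes with the largest absolute difference; Irf3, Rela, Isg15, Cxcl2, Nfkbia and the marker genes were added to these. R 4.3.3, limma 3.58.1, Python 3.11.15, numpy 2.4.6 and pandas 2.3.3 were used. The counting code was run on simulated data made from the PBS values with set differences and scanner error. These data held no shift between arrays and no spread between cultures, so they do not test the effect of either on the counts.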

Additional observations from a re-analysis of the deposited data

How the results depend on the processing

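The alternatives that could move values were 6: median scaling, quantile normalization, loess, normexp, the mean over probes and no scaling. Under these, 99 of 108 receptor differences and list medians moved by less than their error. The error was the scanner's for a receptor and the 0.30 between probes of a gene for a list median. Of the 9 others, 8 were the receptors with no scaling and 1 was Tlr3 with normexp. Only Tlr3 and the medians of both output lists were past 2-fold under the scaling used, and 0 of these turned their sign. Among smaller values, Tlr2 and Tlr9 turned with no scaling and Tlr13 with normexp, as did the medians named below under some settings. Median scaling and no scaling move every difference by the same amount, -0.18 and -0.28. For these the count only sets that shift beside the error. The other alternatives say little about stability: requiring signal on both arrays changed no value, dropping the filter changed none of the 8 receptors, keeping outlier spots changed 1 of them, and the authors' values repeat quantile normalization. The mean over probes left 7 of the 8 receptors as they were. Tlr3 stayed past 2-fold under the 10 alternative processing settings, lowest at 2.50 with normexp. With 1 probe printed once, it stood at 3.58 under the other filters, with outlier spots kept and with the mean over probes. At the 4-fold threshold 1 receptor counted as higher, and at 1.5-fold 2 did. With no scaling, an alternative added after the data were seen, the differences were -0.80 for Tlr1, -0.08 for Tlr2, 3.31 for Tlr3, -0.51 for Tlr4, -0.36 for Tlr6, 0.50 for Tlr7, -0.04 for Tlr9 and -0.30 for Tlr13, all moved by the 0.28 between the 75th percentiles. Over all genes, 687 (4.57%) were at least 2-fold higher and 268 (1.78%) lower. These became 388 (2.59%) and 143 (0.953%) with normexp, 1358 (6.57%) and 451 (2.18%) with no filter on dim probes, which tests more genes, and 394 (2.62%) and 579 (3.86%) with no scaling, and 456 (3.04%) were lower with median scaling. At 1.5-fold they were 1814 (12.1%) and 900 (5.99%), and at 4-fold the shares were 0.812% and 0.113%. The medians of the receptors, of kinases and ligases, of trafficking genes and of endosomal proteases turned their sign under some scalings. Signal over background limits Tlr5, Tlr8, Tlr11 and Tlr12, and the PBS value of Tlr3. No paired analysis was possible because each group held 1 array.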
